A study of Mus musculus with 32 samples.

Results

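The Id and Smad feedback genes Id1, Id2, Id3, Id4, Smad6, Smad7 and Bambi were chosen by name, and all 7 were found among the 25041 genes of the files that have a position in GENCODE M21 on GRCm38 (mm10). They were followed in kidney, liver, lung and spleen of wild-type C57BL/6J female mice aged 6 to 7 months. Mice of the cisplatin group received 1 intraperitoneal injection of cisplatin, a platinum drug that crosslinks neighbouring guanines in DNA, at 10 mg per kg at 1 h after lights on (ZT1) and were killed at ZT5, 4 h later. Control mice received saline by the same route. The sample labels give the time after treatment as 2 h. Each group holds 2 libraries, numbered 1 and 2, which the study calls biological replicates. RNA-seq covers control and cisplatin in each organ, 16 libraries in all. Damage-seq, which reads cisplatin adducts still in the DNA, and XR-seq, which reads the short oligomers that nucleotide excision repair has cut out, each cover 8 cisplatin libraries and no control. Both assays separate the transcribed strand (TS), the template of RNA polymerase, from the non-transcribed strand (NTS).

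Bone morphogenetic proteins (BMPs) and TGF-beta bind paired receptor kinases, which phosphorylate receptor-activated Smads. These join Smad4 and switch on target genes, among them genes that damp the same signal. Id1, Id2, Id3 and Id4 encode helix-loop-helix proteins without a DNA-binding domain, which capture partners such as E proteins and thereby hold back differentiation genes. The Id genes, Id1 and Id3 above all, are classic early targets of BMP signalling. Smad6 and Smad7 encode inhibitory Smads: Smad6 acts mainly on BMP signals, and Smad7 also on TGF-beta signals. Bambi encodes a pseudoreceptor that lacks the kinase domain and blocks receptor signalling. Smad6 and Id1 are well known from endothelial cells.

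The Id genes are short and the Smad genes long, which sets how many reads fall on each strand in the DNA assays. Id1 (ENSMUSG00000042745) spans chr2:152736251-152737410 on the plus strand, 1160 bp with 87 GG dinucleotides on the TS and 99 on the NTS. Id2 (ENSMUSG00000020644) spans chr12:25093799-25097140 on the minus strand, 3342 bp. Its gene model begins 1048 bases before the RefSeq start. Id3 (ENSMUSG00000007872) spans chr4:136143497-136145755 on the plus strand, 2259 bp. Id4 (ENSMUSG00000021379) spans chr13:48261228-48266026 on the plus strand, 4799 bp, and shares 1396 bp with the antisense gene A330033J07Rik. The RNA-seq kit does not mark strand, so RNA reads of the shared part cannot be told apart. Smad6 (ENSMUSG00000036867) spans chr9:63953076-64022059 on the minus strand, 68984 bp with 5315 GG on the TS and 5651 on the NTS.

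Cisplatin forms its main adduct between the guanines of a GG pair, so the GG pairs of each strand are the sites that Damage-seq and XR-seq can read. They are shown for the first 300 coding bases of Id1, whose RNA rose after cisplatin, and of Id2, the 1 member not called for a strand difference in repair reads over organs. Both are given 5′ to 3′ on the coding strand, the NTS, in GRCm38. Capitals mark GG, a site on the NTS, and CC, which is GG on the TS.
Id1, chr2:152736341-152736640, plus strand: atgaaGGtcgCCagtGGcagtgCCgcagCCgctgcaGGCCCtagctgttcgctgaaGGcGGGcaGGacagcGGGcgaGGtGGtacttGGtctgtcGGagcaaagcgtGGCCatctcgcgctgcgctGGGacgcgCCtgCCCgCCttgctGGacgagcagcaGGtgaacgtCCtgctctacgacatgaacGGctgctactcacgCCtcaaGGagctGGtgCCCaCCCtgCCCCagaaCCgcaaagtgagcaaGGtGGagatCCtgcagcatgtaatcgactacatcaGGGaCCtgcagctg
Id2, chr12:25095711-25096010, minus strand: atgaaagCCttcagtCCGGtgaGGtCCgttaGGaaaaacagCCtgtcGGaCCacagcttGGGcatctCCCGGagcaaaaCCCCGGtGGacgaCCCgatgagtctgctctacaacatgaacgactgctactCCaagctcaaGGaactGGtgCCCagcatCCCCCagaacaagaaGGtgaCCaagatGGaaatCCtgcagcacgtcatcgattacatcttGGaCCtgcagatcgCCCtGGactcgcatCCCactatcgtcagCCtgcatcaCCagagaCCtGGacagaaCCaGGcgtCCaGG
The Id1 stretch holds 22 GG on the TS and 25 on the NTS, and the Id2 stretch 31 on the TS and 18 on the NTS. The strand values below are divided by such counts over the whole gene.

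Promoters of Id2, Id3, Id4 and Smad6 were in the RefSeq table for GRCm38.p6, with 250 bases before and 50 after the start. They were searched on both strands for the GC-rich elements GGCGCC and GGAGCC, which Smad proteins are known to bind in BMP target genes. GGCGCC occurred 1 time each in Id2 and Id4 and not in Id3 or Smad6, against 11.9% of the 32851 promoters in the table. GGAGCC occurred 2 times in Smad6 and 1 time each in Id2, Id3 and Id4, against 30.8% of all promoters. A match is only a match of letters. The 250 bases before the Smad6 start are shown because Smad6 had the lower values after cisplatin described below, which passed the test in no single organ. The 2 matches are in capitals.
Smad6, chr9:64022060-64022309, minus strand: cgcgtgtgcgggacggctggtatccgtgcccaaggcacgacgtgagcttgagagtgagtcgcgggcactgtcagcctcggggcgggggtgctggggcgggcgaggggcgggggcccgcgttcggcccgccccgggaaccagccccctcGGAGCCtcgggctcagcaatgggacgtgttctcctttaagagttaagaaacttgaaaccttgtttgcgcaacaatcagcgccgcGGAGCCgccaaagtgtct

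Reads on genes numbered 15618896 to 162263254 per library in RNA-seq, 10658675 to 59779770 in XR-seq and 1571167 to 6441367 in Damage-seq. The 2 control libraries of lung and those of spleen lay closer together than the other RNA-seq pairs. Their dispersion index, chi-square of the counts over its degrees of freedom, was 2.75 and 2.99, against 39.3 to 350 in the other pairs. Both pairs differed by more than read sampling alone and lie just under the limit of 3 used here. Each was summed and counted as 1 sample, which leaves 14 RNA-seq samples. Marker genes matched the organ labels: summed over 5 or 6 markers, liver libraries held 50089 to 127225 RPKM of liver markers, lung libraries 82248 to 101011 of lung markers, kidney libraries 2624 to 3795 of kidney markers and spleen libraries 579 to 673 of spleen markers. RPKM here is reads scaled to exon length and to library size, the latter after TMM. The spleen cisplatin libraries also held pancreas transcripts, 1057 and 806 RPKM over 5 enzymes against 5.58 and 5.42 in the spleen controls, and all 5 were called higher. The part of these transcripts in the spleen values below was not tested. The RNA-seq means over organs of Id1 and Smad6 are given with and without spleen, and the other results over organs with spleen only. A note with the data says that control and cisplatin labels of the lung and spleen RNA-seq libraries were exchanged after deposit, and every direction given for these organs rests on the present labels.

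In control organs the members had distinct levels. Smad6 was a lung gene: its RNA stood at 37.4 and 38.2 RPKM in the lung control libraries, 6.60 and 7.23 in liver, 4.69 and 6.71 in kidney and 1.03 and 0.921 in spleen. No lung library overlapped another organ. The lung level was 38.9-fold that of spleen (log2 difference 5.28, adjusted p = 2.22e-05 by the quasi-likelihood test of edgeR with Benjamini-Hochberg adjustment over 19088 genes) and 6.77-fold that of kidney (adjusted p = 5.05e-05). The lung and spleen control pairs count as 1 sample each, so these p-values take their spread from the other groups. Kidney and liver, the neighbours in the middle of the order, did not pass the test (log2 difference -0.27, adjusted p = 0.436). Endothelial markers were also highest in lung, where 9 of them summed to 666 and 676 RPKM against 77.6 to 101 in the other control libraries. In whole organs, more cells of a type and more RNA per cell cannot be told apart.

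Id4 was a kidney gene, with 33.5 and 29.8 RPKM in kidney controls and 1.78 to 4.12 in every other control library. Kidney exceeded liver 14.8-fold (adjusted p = 4.56e-06), lung 8.77-fold (adjusted p = 0.000179) and spleen 7.68-fold (adjusted p = 0.000146). Below kidney, spleen exceeded liver (1.93-fold, adjusted p = 0.0379), a call lost with the size factors of DESeq2 (adjusted p = 0.0961), and lung did not pass against either in this fit.

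Id2, the member with the highest mean per exon length in kidney, liver and spleen controls, read 141 and 99.0 RPKM in kidney, 140 and 102 in liver, 55.5 and 61.1 in spleen and 31.1 and 32.1 in lung. Lung was 3.71-fold below kidney (adjusted p = 0.00307) and 3.73-fold below liver (adjusted p = 0.00228), and kidney and liver had equal means within their spread (log2 difference -0.01). Id3 was highest in liver, with 122 and 82.6 RPKM against 24.6 and 25.5 in spleen, a 3.91-fold difference (adjusted p = 0.00725). Liver also exceeded kidney in Id3, 3.02-fold (adjusted p = 0.00649), and the remaining Id3 pairs did not pass in this fit. Id1 was lowest in spleen, at 7.01 and 7.06 RPKM. It read 40.4 in both lung libraries, 36.6 and 30.5 in kidney and 15.7 and 20.6 in liver, and of its organ pairs kidney against lung alone did not pass (adjusted p = 0.527).

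Smad7 (ENSMUSG00000025880) spans chr18:75367529-75395935 on the plus strand, 28407 bp with 2114 GG on the TS and 2639 on the NTS. Bambi (ENSMUSG00000024232) spans chr18:3507923-3516404 on the plus strand, 8482 bp. Smad7 was highest in lung, at 15.3 and 15.6 RPKM, and Bambi, the member with the lowest mean in kidney, liver and lung controls, was also highest in lung, at 2.76 and 2.61 RPKM. Smad7 in lung exceeded kidney 2.61-fold (adjusted p = 0.0257) and liver 3.06-fold (adjusted p = 0.00991), and Bambi in lung exceeded kidney 2.45-fold (adjusted p = 0.00958) and liver 1.85-fold (adjusted p = 0.0461). The last call was lost with the size factors of DESeq2 (adjusted p = 0.0597) and without a filter on low counts (0.0717). No other pair of either gene passed in this fit. Of the 42 member by organ pair cases, 24 were called, where 41.2% of such cases over all genes were called. With every library counted apart 30 were, and the added cases were lung over spleen in Id3 (adjusted p = 0.0281), Smad7 (0.0107) and Bambi (0.0120), spleen over lung in Id2 (0.00869), liver over lung in Id3 (0.0140) and lung over liver in Id4 (0.0419).

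**Figure D1:**
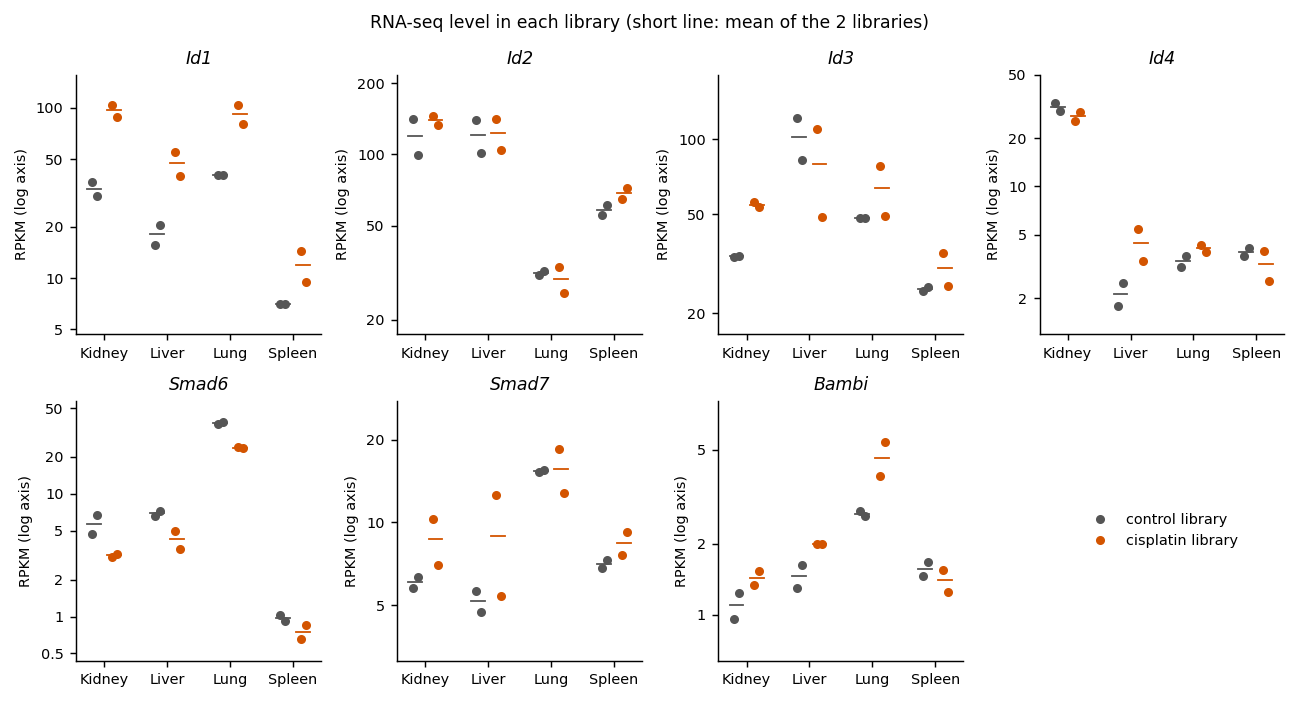
RNA-seq level of each member by organ, in RPKM on a log axis, with 1 point for each library (grey, control; orange, cisplatin) and a short line at the mean of the 2 libraries. Id1 cisplatin points lie above the control points in each organ, Smad6 cisplatin points lie below them, and Smad6 in lung and Id4 in kidney stand above the other organs.

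Id1 was the member called after cisplatin in single organs. In kidney it read 36.6 and 30.5 RPKM in the control libraries and 105 and 88.7 in the cisplatin libraries, a 2.88-fold rise (log2 fold change 1.53, SE 0.28, adjusted p = 0.0256). In liver it read 15.7 and 20.6 against 54.9 and 40.0, a 2.61-fold rise (log2 1.39, SE 0.28, adjusted p = 0.0445). Controls and cisplatin libraries did not overlap in either organ, but the share of all genes apart in this way was not counted. These p-values are from the glmTreat test of edgeR against a log2 fold change of 0.4, adjusted over all genes, and Id1 was the 1 of 7 members called in each of the 2 organs, where 3.12% of genes were called in kidney and 2.71% in liver. In lung Id1 read 40.4 and 40.4 RPKM against 104 and 80.6 (log2 1.17, SE 0.35, adjusted p = 0.377). In spleen it read 7.01 and 7.06 against 14.5 and 9.44 (log2 0.71, SE 0.34, adjusted p = 1.0). Libraries of the 2 treatments were again apart in both organs. No member was called in lung or spleen by edgeR or by DESeq2, both in a joint fit of all organs, where edgeR called 0.372% and 0.136% of genes. The study, by its own DESeq2 analysis, names Id1 among the upregulated genes of kidney and of lung. The lung calls of edgeR were 0 higher and 71 lower, so no gene passed there in the direction of Id1 in this fit. The unadjusted p of Id1 was 0.0137 in lung and 0.113 in spleen.

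The call of Id1 in a single organ depended on the number of libraries. Without any 1 of the 4 kidney libraries, its kidney change stayed between 1.40 and 1.66 on the log2 scale, with adjusted p of 0.0815 without control 1, 0.185 without control 2, 0.190 without cisplatin 1 and 0.0941 without cisplatin 2. Over the 16 fits that left out 1 library the liver change stayed between 1.14 and 1.60, and its call was lost in 9 of them, with adjusted p from 0.0600 to 0.281: without any of the 4 kidney libraries, either liver control, liver cisplatin 1 or either lung cisplatin library. It was also lost with each organ fitted alone (adjusted p = 0.270). With every library counted apart, Id1 was called in lung as well (log2 1.19, adjusted p = 0.0440). Averaged over the 4 organs, a contrast added after these values were seen, Id1 rose 2.29-fold (log2 1.20, SE 0.16, adjusted p = 0.00552), the 1 member called where 4.22% of genes were. Organs may come from the same mice, which the labels do not name, and the fit treats their libraries as independent. The SE and p of the mean do not allow for this. The mean passed in each of the 16 fits that left out 1 library and without the spleen libraries (log2 1.36, adjusted p = 0.00285).

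Immediate-early genes, early responders such as Fos and Egr1, and p53 target genes such as Cdkn1a moved beside Id1. In kidney 7 of 7 immediate-early genes rose, with summed levels of 23.6 and 32.3 RPKM in controls and 279 and 300.2 after cisplatin, and 3 rose in liver, 0 in lung and 0 in spleen. Of 7 p53 targets, 3 rose in kidney and 1 in liver. Their summed level went from 158 and 149 RPKM in controls to 447 and 454 after cisplatin in kidney, and from 62.3 and 78.5 to 163 and 215 in liver. In lung, where none of the 7 was called by edgeR, the sums were 176 and 182 in the libraries now labelled control and 308 and 320 in those now labelled cisplatin. In spleen, also with none called, they were 157 and 166 against 189 and 182. Endothelial markers, of which none of 9 was called in any organ by edgeR, summed to 77.6 and 101 RPKM in kidney controls and 91.7 and 110 in kidney cisplatin libraries. Markers of other organs moved as well. In liver, lung markers summed to 20.3 and 11.7 RPKM in controls and 39.6 and 84.0 after cisplatin (median log2 change 2.05, 1 of 5 called higher), and kidney markers had a median of 1.76 with none of 6 called. Of 5 spleen markers, 1 was called lower in kidney, where they summed to 2.36 and 4.36 RPKM in controls and 1.99 and 1.86 after cisplatin, and 1 in lung, at 63.8 and 67.6 against 19.9 and 14.8. In spleen the median log2 change was 3.17 for liver markers, 1.65 for lung markers and 1.18 for kidney markers. In lung it was -1.55 for liver markers and -1.52 for kidney markers, and in kidney -1.32 for liver markers and -1.74 for pancreas markers. None of the markers in these 7 cases was called by edgeR. The part of these groups in the values of Id1 and the other pathway genes was not tested.

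Smad6 was lower in each cisplatin library than in each control library of its organ, a separation whose share over all genes was not counted. Smad6 did not pass the test in any single organ. It read 4.69 and 6.71 RPKM in kidney controls against 3.07 and 3.26 after cisplatin (log2 -0.85, SE 0.25, adjusted p = 0.209). In liver it read 6.60 and 7.23 against 5.0 and 3.54 (log2 -0.69, SE 0.25, adjusted p = 0.402). In lung, where it is most abundant, it read 37.4 and 38.2 against 23.9 and 23.7 (log2 -0.70, SE 0.29, adjusted p = 0.811). In spleen it read 1.03 and 0.921 against 0.654 and 0.854 (log2 -0.39, SE 0.31, adjusted p = 1.0).

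The mean Smad6 change over organs was -0.66 on the log2 scale (SE 0.14), with adjusted p = 0.173 against the fold threshold of 0.4. Against a fold of 0 it had adjusted p = 0.0114, where 11.2% of genes were called. Without the spleen libraries the mean was -0.75 (adjusted p = 0.0952), and without liver cisplatin library 1 it passed the fold threshold (log2 -0.73, adjusted p = 0.0438). By DESeq2 with the fold threshold its adjusted p was 0.991. The median log2 change of the 9 endothelial markers was 0.11 (kidney), -0.30 (liver), -0.19 (lung) and 0.16 (spleen). Their sums after cisplatin were 814 and 775 RPKM in lung against 666 and 676 in controls, and 87.7 and 72.6 in liver against 87.5 and 92.2. Their part in the Smad6 values was not tested.

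The other members had smaller or less even values, and none was called. Smad7, the broader inhibitory Smad, read 5.64 and 4.70 RPKM in liver controls and 12.5 and 5.37 after cisplatin, which overlap (log2 0.79, SE 0.37, adjusted p = 0.495). In kidney it read 5.77 and 6.32 against 10.3 and 7.01 (log2 0.52, SE 0.36, adjusted p = 0.711), and in lung its log2 change was -0.01. Bambi, the pseudoreceptor, read 2.76 and 2.61 RPKM in lung controls against 3.88 and 5.36 (log2 0.78, SE 0.34, adjusted p = 0.823), and its log2 change was 0.39 in kidney, 0.45 in liver and -0.25 in spleen.

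Id4 read 1.78 and 2.50 RPKM in liver controls against 5.44 and 3.41 after cisplatin (log2 1.05, SE 0.29, adjusted p = 0.174), and in kidney, its main organ, 33.5 and 29.8 against 25.5 and 29.3 (log2 -0.21, SE 0.28). Id3 read 33.7 and 33.9 RPKM in kidney controls against 55.8 and 53.5 (log2 0.69, SE 0.37, adjusted p = 0.560), whereas in liver it read 122 and 82.6 against 111 and 48.8 (log2 -0.36, SE 0.37). Id2 moved least, with log2 changes from -0.13 in lung to 0.21 in kidney.

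Whether the response itself differed among organs was tested by an interaction term. No member passed, with adjusted p (edgeR) from 0.498 for Id4, whose unadjusted p was 0.0304, to 1.0 for Id2 and Smad6, and Id4 was the 1 member with an unadjusted p under 0.05. Over all genes 0.21% passed.

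**Figure D2:**
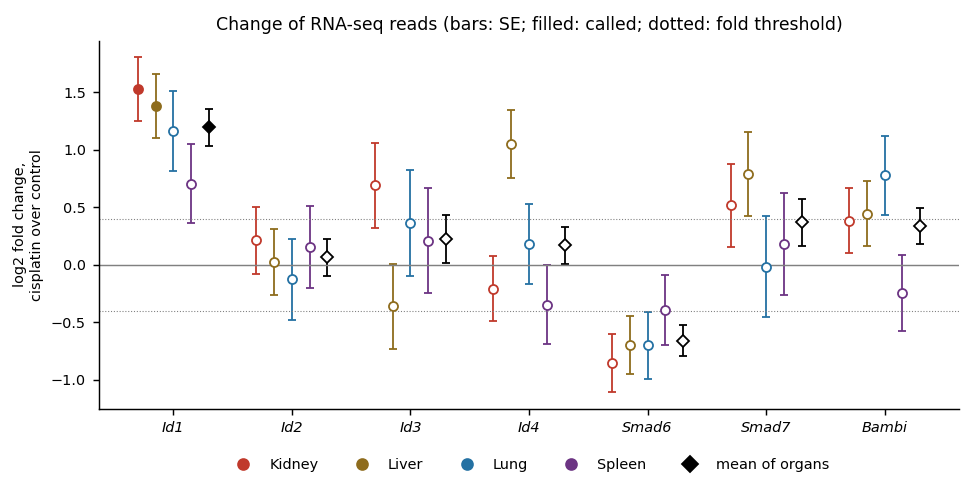
Log2 fold change of cisplatin over control for each member, by organ (circles) and as the mean of the 4 organs (diamonds), with bars for the SE, filled symbols for called changes and dotted lines at the fold threshold of 0.4. Id1 is filled in kidney (1.53), liver (1.39) and the mean (1.20), and the Smad6 values lie below 0 in each organ.

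A list of 78 other genes was drawn up around the pathway, with earlier results of these data known. It includes 8 partners that Id proteins can bind. Of the 78 genes, 77 were tested, and kidney had 5 higher and 1 lower, liver 2 higher and 2 lower, lung 1 lower and spleen none. Over all genes 3.12% (kidney), 2.71% (liver), 0.372% (lung) and 0.136% (spleen) were called in either direction. The median log2 change of the list was 0.11 (kidney), -0.14 (liver), -0.06 (lung) and -0.03 (spleen), beside 0.00, 0.00, 0.01 and -0.03 over all genes. Of 15 ligands, 2 rose in kidney and 1 in liver. Inhbb, which encodes an activin subunit, rose in both, from 1.35 and 1.01 to 4.75 and 5.04 RPKM in kidney (log2 2.06, SE 0.35, adjusted p = 0.0153) and from 0.989 and 1.05 to 2.57 and 4.03 in liver (log2 1.69, SE 0.35, adjusted p = 0.0427). Gdf15, a divergent family member known as a stress-induced hormone and p53 target, rose from 3.63 and 3.24 to 102 and 142 RPKM in kidney (log2 5.15, SE 0.58, adjusted p = 0.00167). No BMP gene was called in any organ.

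By edgeR none of the 14 receptors and none of the 6 signalling Smads was called in any organ, with receptor medians of -0.54 (kidney), -0.53 (liver), -0.01 (lung) and -0.18 (spleen). Other negative regulators moved both ways in kidney. Tgif1, a Smad corepressor, rose from 2.02 and 2.95 to 9.71 and 10.5 RPKM (log2 2.02, SE 0.24, adjusted p = 0.00276), and Skil, which encodes the corepressor SnoN, from 5.47 and 3.52 to 14.7 and 12.0 (log2 1.57, SE 0.32, adjusted p = 0.0404). Nedd4l, a ubiquitin ligase that acts on Smads, fell from 6.89 and 9.88 to 2.64 and 2.76 (log2 -1.63, SE 0.27, adjusted p = 0.0155). In liver Smurf1, a ubiquitin ligase recruited by inhibitory Smads, fell from 4.49 and 4.84 to 2.02 and 1.31 RPKM (log2 -1.48, SE 0.25, adjusted p = 0.0189). Of 12 secreted antagonists only Sost, in lung, was called, at 2.81 and 2.65 RPKM in controls and 0.173 and 0.142 after cisplatin (log2 -4.13, SE 0.70, adjusted p = 0.0400).

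Among 8 partners that Id proteins can bind, Ets2, an ETS factor, rose in kidney from 8.96 and 10.4 to 38.2 and 47.0 RPKM (log2 2.14, SE 0.21, adjusted p = 0.00101), and Tcf12, an E protein, fell in liver from 3.30 and 2.91 to 1.12 and 0.646 (log2 -1.81, SE 0.26, adjusted p = 0.00759). Of 11 other target genes tested, Ccn2, a matrix-associated TGF-beta target, rose in liver from 1.79 and 3.32 to 14.6 and 8.03 RPKM (log2 2.15, SE 0.47, adjusted p = 0.0478), and no other was called.

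The calls of Gdf15, Tgif1 and Ets2 in kidney held in each of 25 alternatives, and the others did not. With each organ fitted alone no gene was called in liver by edgeR (1262 had an unadjusted p under 0.05), and the 4 liver calls were lost (adjusted p = 0.218 for Inhbb, 0.302 for Smurf1, 0.215 for Tcf12 and 0.197 for Ccn2). Leaving out 1 library, Tcf12 was lost without liver control 1 (adjusted p = 0.0594) and Smurf1 without liver control 1 (0.0797), control 2 (0.0873) or cisplatin 2 (0.0658). Inhbb in liver was lost without any of the 4 kidney libraries, either liver control, liver cisplatin 2 or lung cisplatin 2 (0.0517 to 0.232). Ccn2 was lost without any liver library or any cisplatin library of the other organs (0.0517 to 0.301), and without both spleen groups (0.0548). In kidney, Inhbb was lost without any 1 of the 4 kidney libraries (0.0572 to 0.142) and Nedd4l without control 2, cisplatin 1 or cisplatin 2 (0.102 to 0.156). Skil was lost without any of the 4 kidney libraries, either liver control, or any lung or spleen cisplatin library (0.0549 to 0.265), and without both spleen groups (0.0537). Sost in lung, where the control pair counts as 1 sample, was lost without either lung cisplatin library (0.257 and 0.496), lung control 2 (0.0541), any kidney library or either liver control (0.0624 to 0.0803).

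Excision repair of the members was next compared between the strands, since transcription-coupled repair acts on the TS. Averaged over organs, 6 of 7 members held more XR-seq reads per GG on the TS than the NTS, and Id2 was the exception. By the edgeR test with the library as block, 74.1% of genes were called, and the median gene had a TS/NTS ratio of 5.64. Smad6 held 72899 TS reads and 4671 NTS reads over the 8 libraries, a ratio per GG of 16.2 (log2 4.02, SE 0.15, adjusted p = 2.95e-08), at percentile 72.0 of all genes. Smad7 held 31526 and 3713, a ratio of 11.3 (log2 3.49, SE 0.14, adjusted p = 5.77e-08), at percentile 64.2. Bambi held 3254 and 103, the largest ratio of the members, 48.0 (log2 5.58, SE 0.80, adjusted p = 0.000202), at percentile 94.2 of all genes. In 3 libraries Bambi had 0 NTS reads, so the size of its ratio is poorly fixed. Over organs the ratio was 116 without kidney library 2, 106 without lung library 2 and 142 without spleen library 2, and the call held in each.

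Id1 held 1686 TS and 226 NTS reads, a ratio of 8.89 (log2 3.15, SE 0.43, adjusted p = 0.000139), at percentile 59.2 of all genes. Without spleen library 2 the ratio was 19.2 (log2 4.26, adjusted p = 0.000490). Id3 and Id4 lay near the median of all genes, with ratios of 6.01 (log2 2.59, SE 0.26, adjusted p = 1.87e-05) and 6.06 (log2 2.60, SE 0.27, adjusted p = 2.45e-05). In these 6 genes the TS exceeded the NTS in each of the 8 libraries. The share of all genes with this was not counted, and 13428 of 20744 genes were called higher on the TS over organs.

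Id2, in contrast, held 1932 TS and 1488 NTS reads, a ratio of 1.05 (log2 0.07, SE 0.37, adjusted p = 0.901), at percentile 20.4 of all genes. In liver the libraries read 30.2 and 24.8 CPM per 1000 GG on the TS and 36.9 and 43.7 on the NTS, and in lung 32.4 and 26.3 on the TS and 14.8 and 16.1 on the NTS. CPM per 1000 GG is reads scaled to the library's reads on genes of both strands (CPM) and divided by the GG pairs of the strand in units of 1000. In kidney the replicates were far apart, at 7.79 and 49.6 on the TS, and without kidney library 2 the kidney log2 ratio was -1.95 (adjusted p = 0.0292). The TS lay above the NTS in 5 libraries and below in 3. Id2 was not called in any organ with all libraries, and where its reads lie within the gene was not analysed here.

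In single organs 23 of 28 member cases were called, beside 60.9% of such cases over all genes. The 5 others were the 4 of Id2 and Id1 in spleen, where library 1 had 4 TS reads and 0 NTS reads (adjusted p = 0.0517, and 0.0356 or 0.0320 without kidney library 1 or 2). Single-organ calls of the short genes rested on few libraries: Bambi in spleen was lost without spleen library 1 (adjusted p = 0.204) or 2 (0.0547) and without either liver library (0.0738 and 0.0734). Calls in liver of Id3, Id4 and Bambi, and in lung of Id1, were lost without either library of that organ, and Id1 in liver without liver library 2. The strand difference passed no test of a difference among organs for any member, where 21% of genes passed. Smad7 had the lowest adjusted p, 0.0561, and passed without kidney library 1 (0.0298), kidney library 2 (0.0256) or spleen library 1 (0.0401).

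**Figure D3:**
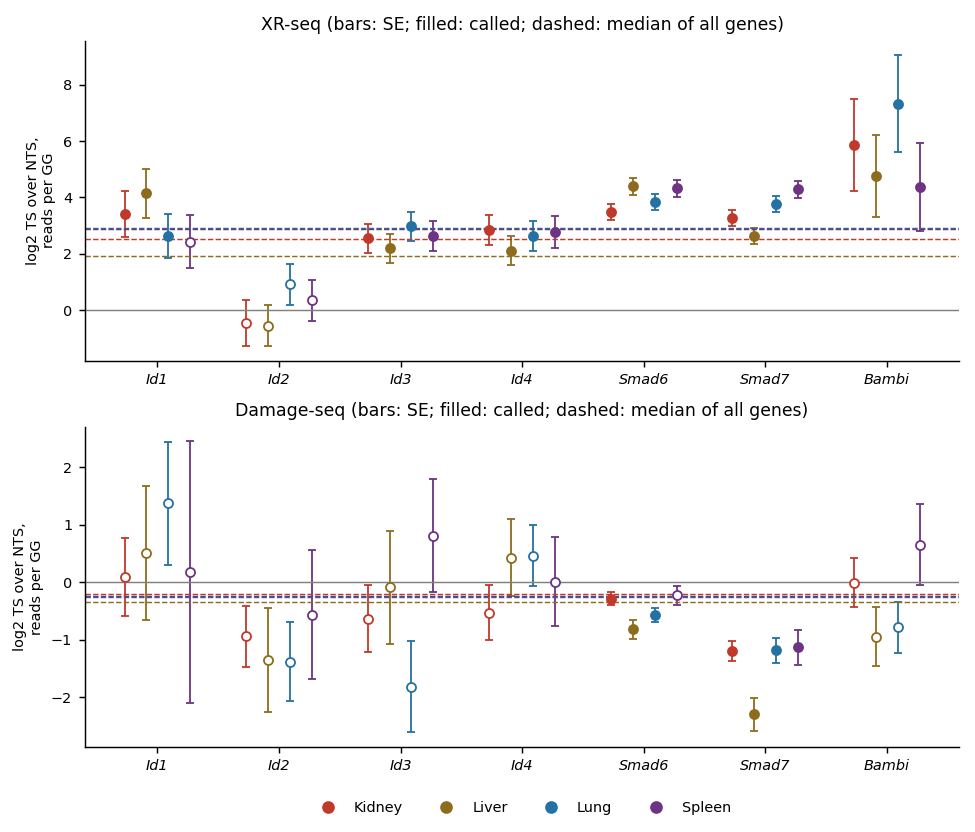
Log2 ratio of TS over NTS reads per GG for each member and organ in XR-seq (upper panel) and Damage-seq (lower panel), with bars for the SE, filled points for called differences and dashed lines at the median of all genes in that organ. Id2 lies near 0 in XR-seq while the other members lie between 2.12 and 7.33, and the lowest Damage-seq value is that of Smad7 in liver, at -2.30.

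Repair on the TS was then compared among organs as a share of each library's reads on genes. Smad6 stood out: it read 71.7 and 60.9 CPM per 1000 GG on the TS in liver, 53.8 and 50.3 in lung, 28.4 and 31.1 in kidney and 11.8 and 14.2 in spleen. Every pair of organs differed, from 5.08-fold between liver and spleen (adjusted p = 3.1e-08) to 1.27-fold between liver and lung (adjusted p = 0.0269). The order differed from that of Smad6 RNA in controls, where lung was highest and liver and kidney alike within the test. XR-seq has no control libraries, but Smad6 RNA after cisplatin, given above, was also highest in lung. Shares of repair reads and RPKM are different scales. Smad7 read 61.6 and 75.8 in kidney, 57.9 and 56.3 in lung, 49.7 and 55.6 in spleen and 37.9 and 32.0 in liver. Liver was lower than each of the others, by 1.97-fold against kidney (adjusted p = 9.11e-05). Kidney exceeded spleen 1.30-fold (adjusted p = 0.0464), and lung did not pass against kidney or spleen.

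Id4 repair on the TS was highest in kidney, as was its RNA, with 89.4 and 65.0 CPM per 1000 GG against 8.95 and 9.40 in spleen, 17.1 and 19.4 in lung and 17.4 and 43.7 in liver, and kidney exceeded spleen 8.37-fold (adjusted p = 0.000208). Bambi was lower in spleen, at 12.6 and 9.90, than in liver, at 34.1 and 34.9 (3.10-fold, adjusted p = 0.00117), and than in lung, at 28.4 and 35.6 (2.88-fold, adjusted p = 0.00354). Id1 read 157 and 93.4 in kidney and 4.31 and 36.2 in spleen (5.67-fold, adjusted p = 0.0152). These 5 members passed the test among the 4 organs on the TS, where 61.6% of genes and, in pairs, 36.6% of cases did. Id3 (adjusted p = 0.0703) and Id2 (0.884) did not pass, but Id3 did without kidney library 1 (0.0155) and Id2 without kidney library 2 (0.0140). The Id1 call (adjusted p = 0.0435) was lost with TMM scaling (0.0528) and without either liver library, either lung library, kidney library 1 or spleen library 1, with adjusted p from 0.0540 to 0.0687.

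On the NTS, 3 members passed among organs, Smad6 (adjusted p = 0.00344), Smad7 (0.0221) and Id2 (0.0446), where 32.3% of genes and 15.7% of pair cases did. Spleen was lowest for Smad6, with 22 and 193 reads, or 0.365 and 0.986 CPM per 1000 GG, against 3.46 and 3.8 in lung (5.07-fold, adjusted p = 0.00467). Smad7 was lower in spleen than in kidney (2.61-fold, adjusted p = 0.0103) and liver (2.05-fold, adjusted p = 0.0378). For Id2 the called pair was liver above lung (2.61-fold, adjusted p = 0.0284). Id4 passed without kidney library 2 (adjusted p = 0.0172; 0.0682 with all). With TMM scaling the Smad7 and Id2 calls were lost (adjusted p = 0.149 and 0.240). Id2 was also lost without either liver library, either lung library or spleen library 1, with adjusted p from 0.0597 to 0.288, and Smad7 without either lung library or spleen library 2, with adjusted p from 0.0504 to 0.0737.

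Damage-seq was far shallower, and the short Id genes could hardly be read: Id1 held 45 TS and 37 NTS reads over the 8 libraries, Id3 44 and 80, Id2 54 and 93, Id4 98 and 102, and Bambi 97 and 153. Smad7 showed the clearest strand difference, with fewer adducts left on the TS than on the NTS in each library, a pattern whose share over all genes was not counted. In liver it read 2.58 and 1.55 CPM per 1000 GG on the TS and 10.7 and 10.7 on the NTS, a ratio of 0.203 (log2 -2.30, SE 0.29, adjusted p = 2.84e-11). In kidney it read 7.27 and 10.2 against 21.1 and 18.4, a ratio of 0.437 (log2 -1.20, SE 0.18, adjusted p = 1.82e-07). The ratio was 0.441 in lung (adjusted p = 4.5e-06) and 0.457 in spleen (adjusted p = 0.0052), and over organs 0.366 (log2 -1.45, SE 0.13, adjusted p = 8.23e-20), at percentile 4.34 of all genes. The spleen call was lost without spleen library 2 (log2 -0.71, adjusted p = 0.437) and the kidney call without kidney library 1 (log2 -0.86, adjusted p = 0.0611).

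Smad6 also held fewer TS than NTS reads in each library, by less. The share of all genes with this was not counted, and 8755 of 20832 genes were called lower on the TS over organs. The Smad6 ratio was 0.565 in liver (log2 -0.82, SE 0.16, adjusted p = 6.42e-06), 0.674 in lung (adjusted p = 0.000118), 0.819 in kidney (adjusted p = 0.0456) and 0.852 in spleen (adjusted p = 0.419). Over organs it was 0.718 (log2 -0.48, SE 0.07, adjusted p = 3.56e-09), at percentile 36.5 of all genes. The kidney call was lost without either kidney library, either liver library or spleen library 2 (adjusted p 0.0508 to 0.786), without a filter (adjusted p = 0.0539) and with genes of 20 or more reads and under 100000 bp (0.0785), and the lung call without lung library 2 (adjusted p = 0.106). Id2, on 54 TS reads, had a ratio of 0.479 over organs (log2 -1.06, SE 0.42, adjusted p = 0.0321), with the TS below the NTS in 8 of 8 libraries, again without a share over all genes. That call held only without lung library 2 (log2 -2.19) among the 8 fits that left out 1 library, was lost in the other 7 (adjusted p 0.0561 to 0.0890), and with an offset per base in place of per GG (adjusted p = 0.0995).

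These 3 members were called over organs, where 44.8% of genes were and the median ratio was 0.840, and 7 of 28 member by organ cases were called beside 24.3% over all genes. For Id1, Id3, Id4 and Bambi a strand difference was not detectable at this depth (SE of the log2 ratio 0.27 to 0.74). No member passed the edgeR test of the strand difference among organs (adjusted p 0.0848 for Smad7 and 0.120 for Smad6, each under 0.05 unadjusted), where 10.3% of genes passed. Smad7 passed without kidney library 1 (0.0265).

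Among organs, Damage-seq reads of Smad6 and Smad7 were highest in kidney on both strands. On the NTS, Smad7 read 21.1 and 18.4 CPM per 1000 GG in kidney against 9.89 and 9.94 in spleen, 7.40 and 10.6 in lung and 10.7 and 10.7 in liver, and Smad6 read 16.9 and 13.5 in kidney against 7.74 to 11.4 elsewhere. Kidney exceeded each other organ in both genes, for Smad7 by 1.85-fold to 2.18-fold and for Smad6 by 1.53-fold to 1.81-fold, and these were the only pairs called on the NTS among the 6 members tested. On the TS, Smad7 in kidney exceeded liver 4.00-fold (adjusted p = 1.54e-06), and Smad6 in kidney exceeded liver 2.62-fold (adjusted p = 3.67e-10). Smad6 in spleen also exceeded liver on the TS, 1.79-fold (adjusted p = 0.00285). Without lung library 2, Id2 passed among organs on the TS (adjusted p = 0.00705) and Id4 on the NTS (0.0484). These are shares of each library's reads on genes and not adducts per genome. The 2 Smads were called among organs on both strands, where 34% of genes were on the TS and 18.9% on the NTS, with 13% and 7.99% of pair cases. With all libraries, Id1 had too few reads to enter these tests.

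**Figure D4:**
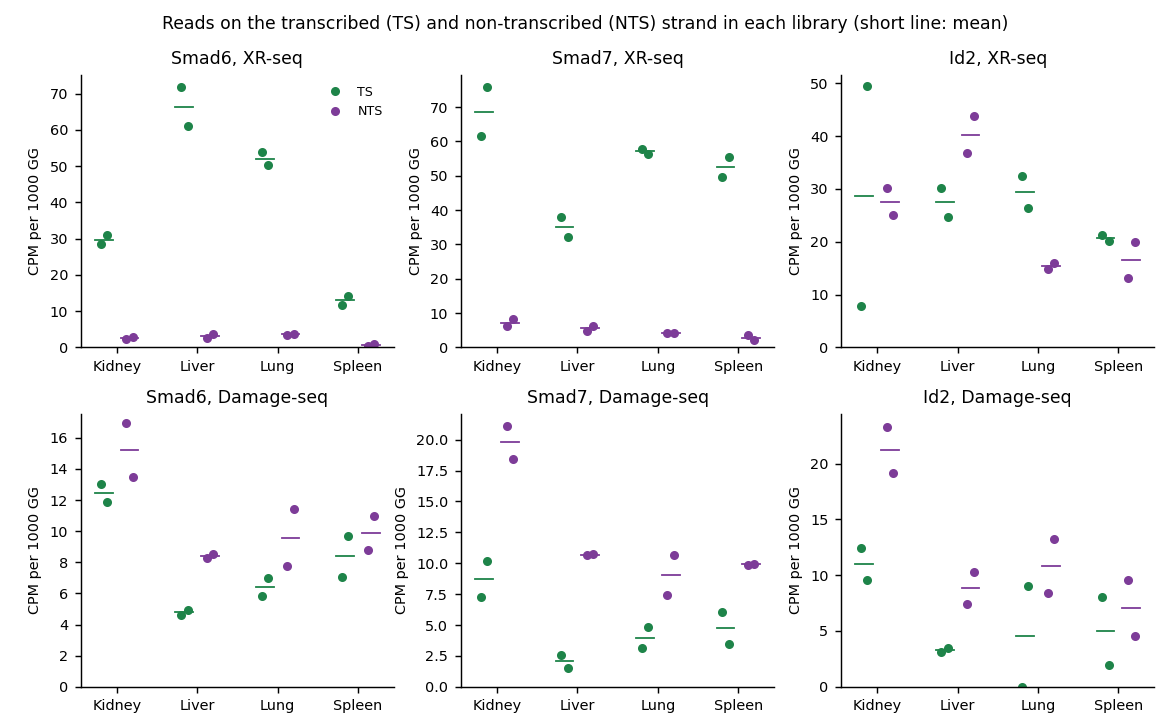
Reads of Smad6, Smad7 and Id2 on the TS (green) and NTS (purple) in each library, in CPM per 1000 GG on axes that start at 0, for XR-seq (upper row) and Damage-seq (lower row), with a short line at the mean of 2 libraries. In XR-seq the TS points of both Smads lie above all their NTS points, the Id2 strands overlap in kidney, and in Damage-seq both Smads are highest in kidney on the NTS.

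Over the 14 RNA-seq samples, the genes whose log2 CPM followed a member most closely among 19088 genes were Lrp4 (Pearson r = 0.976) and Pxdn (0.974) for Smad6, and Wnk4 (0.976) and Slc23a3 (0.975) for Id4. Id1 was followed by Trip10 (0.958) and Pofut2 (0.948), Id2 by Fabp7 (0.968) and Stard5 (0.958), and Id3 by Crhr2 (0.932). Smad7 was followed by Parvaos (0.939) and Taok2 (0.924), and Bambi by B3gnt3 (0.942) and Slc43a3 (0.940). No other member was among these genes. The samples fall into 4 organs, so these correlations describe mainly shared differences between organs, with libraries in common.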

How the data were processed

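RNA-seq, XR-seq and Damage-seq were analysed from gene tables. The authors trimmed DNA reads with cutadapt, aligned them with BWA, removed duplicates with Picard and filtered by mapping quality and the place of GG, XR-seq reads also by length. RNA reads were aligned with STAR and counted with featureCounts, all on mm10 (versions not given in the sources used here). The deposited values are raw read counts per gene, checked to be whole numbers, per strand in the DNA assays. At most 1 row per file named no gene and was dropped. Depth ranged from 1571167 to 162263254 reads on genes, and the few reads on short genes limit Damage-seq most.

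Groups follow the present sample labels, in which control and cisplatin were exchanged for lung and spleen RNA-seq after deposit. Members and lists were chosen with earlier results of these data known. Named genes are the members, pathway genes called in RNA-seq (up to 6 an organ by size) and the 2 genes most correlated with each member (log2 CPM, prior count 1), of which 1 is not reported here.

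Counts were tested with edgeR 4.0.16 (R 4.3.3; filterByExpr, glmQLFit). RNA-seq used TMM and 1 fit of all organs with glmTreat against a log2 fold change of 0.4. RNA-seq pairs with a dispersion index of 3 or below (genes with 20 or more reads) were summed, and the lone sample is assumed to vary like the other groups. The shallower Damage-seq pairs had indices of 1.43 to 3.11 and were kept apart, a choice made with the indices known. Strands were compared within libraries with an offset for reads on genes and GG dinucleotides, counted in GRCm38. Adjusted p-values (Benjamini-Hochberg) were called at 0.05, and the SE comes from the test against 0. p-values measure only the spread between these libraries. The labels do not name the mouse of a library, so organs may share mice. Means over organs, in RNA-seq and for the strands, treat libraries of different organs as independent. Alternatives were other scaling (size factors of DESeq2, TMM), filters, DESeq2 1.42.0, fits by organ, libraries counted apart, a replicate block, offsets per base and each library left out. The mean over organs in RNA-seq, the strand by organ tests and the fit without spleen were added after the data were seen. The edgeR code was tested on simulated data. In RNA-seq, 0% of genes with a simulated log2 fold of 1 were called in each organ. At a log2 fold of 2, 43% (kidney), 46% (liver), 11% (lung) and 22% (spleen) were called. A gene not called in RNA-seq may thus still have changed by such folds. Tables were built with Python 3.11.15 and figures with matplotlib 3.10.9.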

Additional observations from a re-analysis of the deposited data

How the results depend on the processing

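No called member value changed sign, and 525 of 575 values of the 66 called member effects under an alternative kept their call. Most of these effects are control-level or strand differences and not responses to cisplatin. The Id1 calls in kidney and in liver were each lost without any 1 of the kidney libraries, as given above. With every library counted apart, edgeR called 1262 kidney, 1007 liver, 539 lung and 85 spleen genes, 1336 for the mean of organs and 621 for the response among organs, and 1 member in lung, Id1. With each organ fitted alone it called 0 genes and 0 members in liver, where 1262 genes had an unadjusted p under 0.05 and DESeq2 in the joint design called 611, and 383 genes in lung. Without a filter it called 824 genes in liver, 345 in lung, 78 in spleen and 344 for the response, and against a fold of 0 it called 1209, 918 and 122 genes in kidney, liver and lung, 2134 genes and 2 members for the mean. DESeq2 called 147 genes in lung and 50 in spleen, and with its size factors in edgeR 24 genes differed in response. With 20 or more reads and under 100000 bp, 2797 genes (XR-seq) and 1320 (Damage-seq) had strand differences that varied among organs, and with TMM 1 member, Smad6, passed on the NTS in XR-seq. The cause of these shifts was not tested.

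The labels do not say that a replicate number marks a shared batch, and with 2 pairs an organ the numbers were not taken to pair the samples. Differences between replicates 1 and 2 in control and cisplatin correlated at 0.608 (kidney), 0.517 (liver), 0.0886 (lung) and 0.259 (spleen). With a replicate block in kidney and liver 1407 genes were called in kidney, 1080 in liver, 255 in lung, 1283 for the mean and 172 for the response. With a replicate block and every library counted apart the counts were 2010, 1501, 1013 and 118 in kidney, liver, lung and spleen, 1735 for the mean and 1777 for the response, with 1 member in lung, Id1 (adjusted p = 0.0360).

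Leaving out 1 library at a time, genes called ranged from 98 to 1175 in kidney, 169 to 2023 in liver, 0 to 219 in lung, 20 to 97 in spleen, 510 to 1386 for the mean and 8 to 210 for the response, with 0 to 1 members in kidney and liver and 1 to 2 for the mean. The lowest kidney and lung counts came without kidney cisplatin 1 and lung cisplatin 2. In XR-seq, genes ranged from 14116 to 15823 for the strands, 1125 to 9192 for strands among organs (0 to 1 members), 9838 to 14519 on the TS (4 to 6) and 4301 to 10462 on the NTS (1 to 4), and member by organ cases from 18 to 25. In Damage-seq they ranged from 8192 to 9438 (2 to 3 members), 787 to 2657 (0 to 1), 4547 to 7205 (2 to 4) and 1205 to 4257 (2 to 3), with 5 to 8 cases. Id3 in lung passed in Damage-seq with an offset per base (log2 -2.0, adjusted p = 0.0415), and without lung library 2 Id2 (log2 -5.90, adjusted p = 0.0110) and Id4 (2.11, 0.0320) did in lung. With 2 libraries a group, and few Damage-seq reads on the short genes, depth limits these values.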
